A study of Homo sapiens with 4 samples.

Results

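NRF2, the transcription factor encoded by NFE2L2, is the main switch of the antioxidant response. Described here are 9 genes of that response in MDA-MB-231 cells: the factor itself, its inhibitor gene KEAP1, and 7 target genes (GCLC, GCLM, TXN, TXNRD1, SRXN1, NQO1 and HMOX1). They were taken by symbol from a count table of 28930 gene symbols, and all 9 were found there. MDA-MB-231 is a human breast cancer line without estrogen and progesterone receptors, and ESR1 and PGR had no count in any library. The fixed list of markers taken as low or absent in the line also held CDH1, EPCAM and ERBB2. CDH1 had 0 or 1 count per library and EPCAM 23 to 82 counts. ERBB2 was not absent, with 1187 to 1749 counts per library. The groups were 2 libraries from cells given a control siRNA and 2 from cells given an siRNA against hTrmt13, the product of TRMT13, a methyltransferase that modifies tRNA. The labels state no dose, duration or siRNA sequence, so the knockdown is known only as a reduced transcript level. The comparison asks which transcripts differ when hTrmt13 is reduced, within a study of hTrmt13 and transcription.

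In unstressed cells KEAP1 holds NRF2 in the cytoplasm and hands it to the CUL3 ubiquitin ligase, so that NRF2 protein is short-lived. Oxidants and electrophiles modify KEAP1, NRF2 then accumulates in the nucleus, pairs with a small MAF protein and binds antioxidant response elements near its target genes. The repressor BACH1 occupies many of the same elements and is released by heme. Because this control acts on NRF2 protein, the NFE2L2 transcript level is not by itself a measure of NRF2 activity, and no protein was measured in these libraries.

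TRMT13 was counted at 14.9 and 18.9 CPM in control and fell to 3.52 and 4.79 CPM under knockdown, 4.05-fold lower (edgeR adjusted p = 0.0399), so each library went with its label. CPM is the usual depth-scaled count of a gene, after TMM scaling, and 1 CPM stood for 9.58 to 13.4 counts in these libraries. Total counts per library ran from 9777267 to 13098985. The first principal component, with 64.2% of the variance of log2 CPM, separated the groups, and the second, with 29.8%, separated replicate number 1 from 2. Across the 13022 genes tested with edgeR's quasi-likelihood test, 389 had a Benjamini-Hochberg adjusted p under 0.05. Separate cultures are not stated for the replicates, so each p-value measures the spread between libraries that may differ only technically.

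NQO1 rose 2.32-fold in the knockdown and was the only one of the 9 genes to pass the adjusted threshold. HMOX1, GCLM and TXNRD1 stood 3.05-fold, 2.20-fold and 1.72-fold higher, with adjusted p from 0.053 to 0.0961 in edgeR's quasi-likelihood test, and so did not pass. GCLC, TXN and KEAP1 had positive values that were smaller against their errors, and NFE2L2 stayed close to its control level. SRXN1 was counted too rarely to be tested, so 8 of the 9 genes passed the filter on low counts. Of these 8, 1 was higher at the adjusted threshold, where 1.03% of all tested genes were, and 0 were lower, where 1.96% were. At an unadjusted p under 0.05, 4 of the 8 were higher, against 11.5% of all tested genes, and 0 were lower, against 12.5%. DESeq2 called more genes in all: of the 13371 to which it gave an adjusted p, 3.40% were higher and 5.04% lower. It called 3 of the 8 (NQO1, HMOX1 and GCLM) higher and 0 lower. In 6 of the 8, both knockdown libraries lay above both control libraries, a position held by 27.5% of all tested genes. In 0 of them did both lie below, where 26.8% of all tested genes did. The median log2 fold change of the 8 was 0.62, beside 0.01 over all genes tested. The genes were chosen with earlier results of these data known, so these shares and medians describe the group and do not test it.

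**Figure D1:**
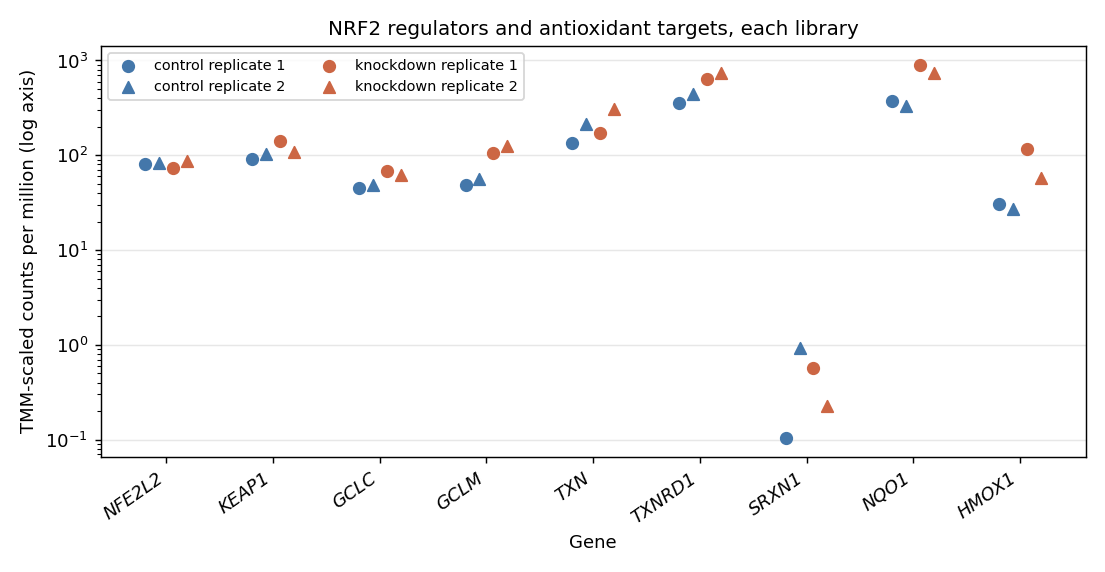
TMM-scaled CPM (log axis) of the 9 genes in each of the 4 libraries, with control in blue, knockdown in orange, replicate 1 as circles and replicate 2 as triangles. The orange points of GCLM, TXNRD1, NQO1 and HMOX1 lie above both blue points, those of NFE2L2 lie on either side of its blue points, and SRXN1 stays under 1 CPM.

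The promoters of the genes were searched for the letters at the centre of an antioxidant response element, TGACNNNGC, read on both strands (GCNNNGTCA on the other). The windows were RefSeq promoter sequences of GRCh38.p14, from 250 bases before to 50 after each annotated start, a newer build than the hg19 named in the submitters' processing notes. Sequences were found for 8 of the 9 genes, in 11 windows. HMOX1 is not among them. The letters occurred in 4 of the 11 windows (36.4%), which belong to GCLM, KEAP1 and TXNRD1, and in 13.3% of all 35116 windows. They did not occur in the windows of NQO1, GCLC, TXN, NFE2L2 or SRXN1, which says only that these letters are not within those 300 bases. The matches in the members are printed because GCLM and TXNRD1 are among the 4 genes with the largest differences, together with the match of PIR, the other pathway gene that rose. Each is written 5′ to 3′ on the strand that reads TGACNNNGC, which is in capitals, with 10 bases on either side.
GCLM, chr1:93909446-93909474: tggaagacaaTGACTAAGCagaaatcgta
KEAP1, chr19:10502784-10502812: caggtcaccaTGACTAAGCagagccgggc
KEAP1, chr19:10502807-10502835: acttttattgTGACACGGCgggcgcccgg
TXNRD1, upstream start, chr12:104215670-104215698: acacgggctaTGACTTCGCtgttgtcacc
TXNRD1, upstream start, chr12:104215761-104215789: ctgtgggaacTGACGGAGCcgaaggacgc
TXNRD1, downstream start, chr12:104286920-104286948: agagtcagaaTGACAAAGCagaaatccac
PIR, chrX:15493289-15493317: agcctcaccgTGACTCAGCgcttcgcggc

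GCLM and one of the KEAP1 matches hold the same 9 letters, TGACTAAGC. In GCLM they lie 26 to 34 bases before the annotated start on the strand opposite to the gene, and in KEAP1 23 to 31 bases before it, also on the opposite strand. The TXNRD1 match at the downstream start lies 94 to 102 bases before it. The PIR match holds TGACTCA, the usual binding letters of AP-1, inside it, and lies 26 to 34 bases after the start. None of these matches was tested for binding, and the data hold no measure of NRF2 on DNA.

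The regulators had the smallest differences. NFE2L2 stood at 80.2 and 83.2 CPM in control and at 72.7 and 86.6 CPM in knockdown. The knockdown libraries lay on either side of the control libraries, and the log2 fold change was −0.04 (SE 0.22, edgeR adjusted p = 0.944). Its sign turned to 0.092 without knockdown replicate 1. KEAP1, the adaptor that targets NRF2 for degradation, stood at 90.3 and 103 CPM in control and at 141 and 109 CPM in knockdown. Its knockdown libraries were both higher, but the second by only 1.06-fold over control replicate 2 and the first by 1.56-fold over control replicate 1. The log2 value was 0.37 (SE 0.23, edgeR adjusted p = 0.377), so the gene did not pass the adjusted threshold.

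GCLC and GCLM encode the catalytic and the modifier subunit of glutamate-cysteine ligase, the enzyme of the first and rate-limiting step of glutathione synthesis. GCLM stood at 48.3 and 56.6 CPM in control and at 106 and 125 CPM in knockdown. The groups did not overlap, and the ratio was 2.20 for replicate number 1 and 2.21 for replicate number 2, the closest match between the 2 numbers among the 8 genes tested. The fitted log2 fold change was 1.14 (SE 0.23, edgeR adjusted p = 0.053), just short of the threshold. It passed in 5 of 11 alternative settings, upper-quartile scaling among them (adjusted p = 0.049), and its adjusted p ran from 3.56e-06 to 0.156 over all 11. GCLC stood at 45.6 and 48.3 CPM in control and at 68.4 and 61.5 CPM in knockdown. Its groups did not overlap either, and its fold change of 1.38 (log2 0.47, SE 0.22, edgeR adjusted p = 0.258) was well below that of its partner subunit. The difference between the 2 subunits was not tested.

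TXN, TXNRD1 and SRXN1 belong to the thioredoxin system, which reduces oxidized protein thiols and peroxiredoxins at the expense of NADPH. TXNRD1, the cytosolic thioredoxin reductase, a selenoprotein, stood at 359 and 439 CPM in control and at 642 and 731 CPM in knockdown. Both knockdown libraries were above both control libraries, 1.79-fold and 1.66-fold by replicate number, and the log2 fold change was 0.78 (SE 0.22, edgeR adjusted p = 0.0961). TXN, its substrate thioredoxin, stood at 136 and 213 CPM in control and at 171 and 309.9 CPM in knockdown. The groups overlapped, because replicate 2 was higher than replicate 1 in each of them, 1.57-fold in control and 1.82-fold in knockdown. The log2 fold change was 0.46 (SE 0.35, edgeR adjusted p = 0.472), and it was −0.034 without knockdown replicate 2. TXN has processed pseudogenes whose reads may be shared with it.

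SRXN1 encodes sulfiredoxin, which repairs over-oxidized peroxiredoxins. It had 1 and 12 counts in control and 6 and 3 counts in knockdown. The depth-scaled ratio of knockdown to control was 0.65, with a 95% exact binomial interval of 0.25 to 1.65 that covers counting error only, so no difference was detectable at this depth. In GENCODE 29, SRXN1 shares 6745 bases of its span with AL121758.1, a protein-coding gene on the same strand. AL121758.1 is not among the symbols of the count table, and whether the annotation used for counting held it is not known. Reads that fall in 2 overlapping genes can be left uncounted, and whether that happened here was not tested. The low count may therefore not reflect how much SRXN1 transcript the cells held.

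NQO1 and HMOX1 are the most used marker genes of the response. NQO1 encodes a quinone reductase that uses NADPH or NADH to reduce quinones without forming semiquinone radicals. It stood at 377 and 328 CPM in control and at 905 and 734 CPM in knockdown. The mean rose from 353 ± 34.5 CPM (SD, n = 2) to 819 ± 121 CPM (SD, n = 2), and the lower knockdown library was still far above the higher control library. The log2 fold change was 1.22 (SE 0.22, edgeR adjusted p = 0.0435), and NQO1 also passed in all 11 alternative settings, with adjusted p from 1.74e-06 to 0.0495. With any 1 library left out its log2 fold change lay between 1.06 and 1.36.

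HMOX1 encodes heme oxygenase 1, which breaks heme down to biliverdin, iron and carbon monoxide. It had the largest log2 fold change of the 8 genes and also the largest SE, 0.36 beside 0.35 for TXN. The control libraries stood at 30.5 and 27.2 CPM and the knockdown libraries at 118 and 58.3 CPM. Both knockdown libraries were above control, 3.86-fold for replicate number 1 and 2.15-fold for replicate number 2. The log2 fold change was 1.61 (SE 0.36, edgeR adjusted p = 0.0643), so the gene did not pass in the reported fit. With all 4 libraries it did pass in DESeq2 (Wald test adjusted p = 8.97e-04), without a filter on low counts and with a block for replicate number. It did not pass with the other scalings or with the filter at a mean of 5 CPM. Its log2 fold change was 1.02 without knockdown replicate 1 and 2.03 without knockdown replicate 2. Over all 11 alternatives its adjusted p ran from 5.11e-07 to 0.0732. HMOX1 is also high in macrophages. Among 9 blood cell markers, CD3E and HBB had no count in any library, and the 9 together summed to 2.55 to 3.03 CPM in control and 1.24 to 1.57 CPM in knockdown. CSF1R had 39 counts in control and 10 in knockdown, PTPRC had 8 and 19, and CD163 and ITGAM had 1 each, both in control. The part of such cells in the HMOX1 values was not tested.

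**Figure D2:**
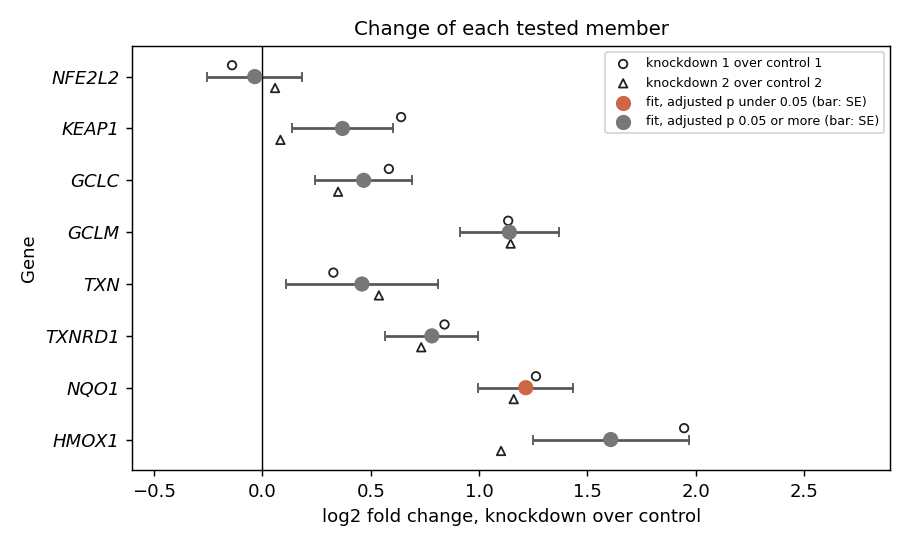
log2 fold change of knockdown over control for the 8 genes tested, with the fitted value and its SE (filled points and bars, orange where the adjusted p was under 0.05) and the ratio within each replicate number (open circles for 1, open triangles for 2). Only NQO1 is orange, and the 2 numbers lie closest together for GCLM and far apart for HMOX1 and KEAP1.

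Levels can be set against each other only per transcript length, here as CPM per kilobase of merged exons in GENCODE 29, an annotation that may differ from the one used for counting. In control cells the mean order was TXN at 201 CPM per kilobase, NQO1 at 113, TXNRD1 at 79.1, KEAP1 at 30.6, NFE2L2 at 18.0, HMOX1 at 15.8, GCLM at 10.7, GCLC at 7.36 and SRXN1 at 0.19. No 2 neighbours in that order overlapped between their control libraries. In knockdown cells NQO1 reached 262 CPM per kilobase, and its libraries (235 to 290) fell inside the range of TXN (196 to 357). HMOX1 lay above NFE2L2, at 48.2 CPM per kilobase, and overlapped KEAP1, with libraries from 32.0 to 64.5 against 34.5 to 44.6. GCLM, at 23.6, also lay above NFE2L2, at 17.6. These places in the order are a description and were not tested.

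The genes with the most similar pattern over the 4 libraries were found for NQO1 and HMOX1, the members with the largest differences. Likeness was the root mean square distance between log2 CPM profiles, each centred on its own mean. The search covered 10684 genes whose mean level reached 5 CPM. Nearest to NQO1 were TBC1D9B (distance 0.021), USP42 (0.044) and NIPSNAP1 (0.053). TBC1D9B stood at 168 and 147 CPM in control and at 399.9 and 337 CPM in knockdown. Nearest to HMOX1 were PRRT3 (0.070), C14orf79 (0.087) and CREB5 (0.10), and CREB5 stood at 17.3 and 14.9 CPM in control and at 57.0 and 33.8 CPM in knockdown. With 4 libraries many genes share such a shape, so this is a description only.

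Around the 9 genes, 125 further genes of the pathway were read from 7 lists, and 112 were tested. Of these, 1 rose (PIR) and 0 fell at the adjusted threshold. At an unadjusted p under 0.05, 15 were higher and 14 lower, and in 33 both knockdown libraries lay above control and in 31 below. Their median log2 fold change was 0.06. Read against the edgeR shares of all tested genes given above, the 112 genes as a whole were near the background. The genes named next did not pass, apart from PIR, and are given as values.

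**Figure D3:**
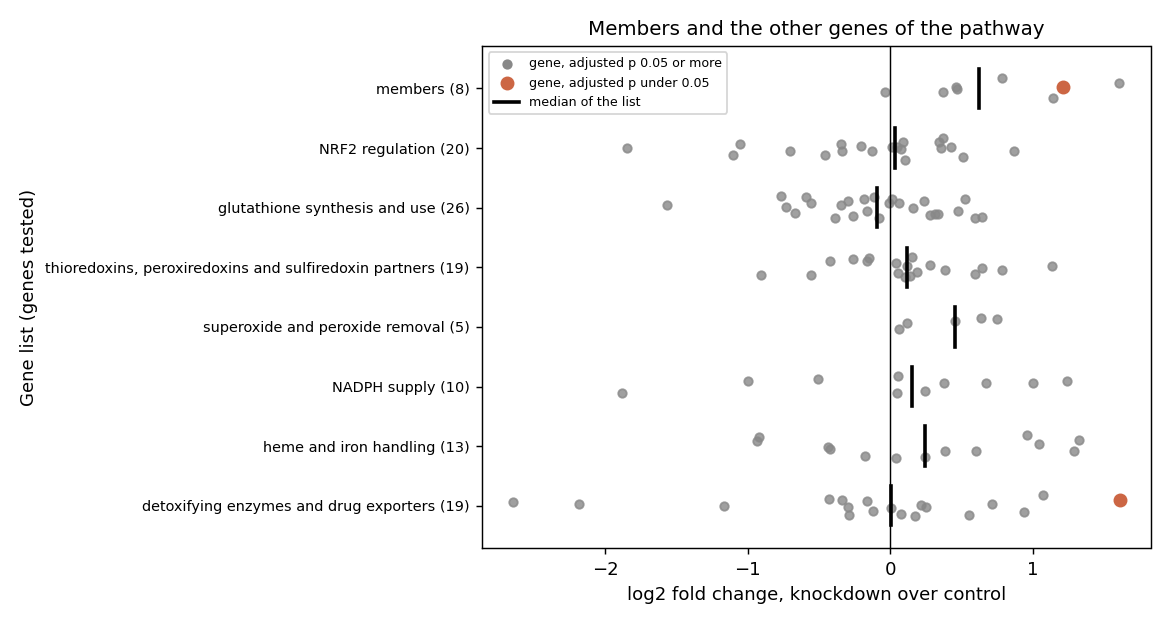
log2 fold change of knockdown over control for every tested gene of the 9 members and of the 7 lists, 1 point a gene (orange where the adjusted p was under 0.05, with random vertical scatter), and the median of each list as a black bar. The members' median lies at 0.62 and those of the lists between −0.10 and 0.45, and the only orange points are NQO1 and PIR.

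Of 20 genes that regulate NRF2 or share its binding elements, 0 passed with edgeR, and DESeq2 called 2 lower (BACH1 and BACH2). At an unadjusted edgeR p under 0.05, 1 was higher and 4 lower, against 11.5% and 12.5% of all tested genes. The median of 0.03 changed sign with 1 library left out (−0.06 to 0.06). BACH1, the heme-sensing repressor that competes with NRF2 at HMOX1 and other targets, stood at 37.6 and 39.1 CPM in control and at 13.1 and 22.5 CPM in knockdown. The groups did not overlap, and the log2 value was −1.10 (SE 0.32, edgeR adjusted p = 0.107). The related repressor gene BACH2 stood at 12.4 and 7.35 CPM in control and at 2.85 and 2.62 CPM in knockdown (log2 −1.85, SE 0.40, edgeR adjusted p = 0.0594). Whether the levels of BACH1 and BACH2 bear on HMOX1 was not tested. GSK3B, a kinase that marks NRF2 for degradation apart from KEAP1, stood at 49.4 and 63.1 CPM in control and at 93.5 and 112 CPM in knockdown (log2 0.87, edgeR adjusted p = 0.0971). MAFF, a small MAF partner of NRF2, and RXRA, a nuclear receptor that can repress it, were named after their values were seen, with log2 values of −1.05 and −0.71. CUL3, the ligase scaffold that acts with KEAP1, also named after its values were seen, had a log2 fold change of −0.21 with overlapping groups.

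Genes of heme and iron handling act beside HMOX1. At an unadjusted edgeR p under 0.05, 5 of 13 were higher and 1 lower, against 11.5% and 12.5% of all tested genes. In edgeR 0 passed the adjusted threshold, and the median was 0.24. DESeq2, which called 3.40% of all its genes higher and 5.04% lower, called 3 of the 13 higher (TFRC, FTH1 and FECH) and 0 lower. TFRC, the transferrin receptor that brings iron in, stood at 135 and 217 CPM in control and at 375 and 507 CPM in knockdown (log2 1.32, SE 0.30, edgeR adjusted p = 0.0643). FTH1, the ferritin heavy chain that stores iron and a known NRF2 target, stood at 955 and 638 CPM in control and at 2523 and 1365 CPM in knockdown. Its log2 fold change was 1.29 (SE 0.35, edgeR adjusted p = 0.0922), and its replicate 1 was the higher in both groups, as for HMOX1. FTH1 has many processed pseudogenes that can share its reads. FECH, the ferrochelatase that completes heme, stood at 19.9 and 23.9 CPM in control and at 45.8 and 44.8 CPM in knockdown (log2 1.05, edgeR adjusted p = 0.0683). The other genes with an unadjusted p under 0.05, named after their values were seen, were BLVRB and HMOX2 (log2 0.96 and 0.60) and the heme exporter gene FLVCR1 (log2 −0.94). 

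NADPH feeds NQO1, TXNRD1 and glutathione reductase. Of 10 genes that supply it, 0 passed the adjusted threshold with edgeR, and the median was 0.15. At an unadjusted edgeR p under 0.05, 3 were higher and 2 lower, against 11.5% and 12.5% of all tested genes. DESeq2 called ME1 higher and IDH1 and IDH2 lower. ME1, the cytosolic malic enzyme and a known NRF2 target, stood at 23.0 and 30.2 CPM in control and at 57.0 and 69.0 CPM in knockdown (log2 1.24, SE 0.26, edgeR adjusted p = 0.0588). The isocitrate dehydrogenase genes had lower values in both knockdown libraries. IDH1 stood at 188 and 214 CPM in control and at 84.2 and 117 CPM in knockdown (2.00-fold lower, edgeR adjusted p = 0.0748), and IDH2 at 12.7 and 21.2 CPM against 3.71 and 5.47 CPM (log2 −1.88, edgeR adjusted p = 0.0576). TKT of the pentose phosphate pathway, named after its values were seen, was also higher at an unadjusted p under 0.05, with a log2 value of 0.67.

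Among 19 detoxifying enzymes and exporters, PIR rose and 0 fell with edgeR, while DESeq2 called PIR and AKR1B1 higher and EPHX1 lower. PIR encodes pirin, an iron-binding nuclear protein, and is an NRF2 target gene. It stood at 8.46 and 9.13 CPM in control and at 30.0 and 23.9 CPM in knockdown, 3.06-fold higher (log2 1.61, SE 0.28, edgeR adjusted p = 0.0416), with adjusted p up to 0.0457 over 11 alternative settings. AKR1B1, an aldo-keto reductase, stood at 243 and 212 CPM in control and at 456 and 416 CPM in knockdown (log2 0.94, edgeR adjusted p = 0.0614). EPHX1, a microsomal epoxide hydrolase often listed with NRF2 targets, stood at 43.3 and 29.5 CPM in control and at 18.9 and 13.5 CPM in knockdown (log2 −1.17, edgeR adjusted p = 0.0912). CYP4F11, with 38 counts in control and 6 in knockdown, had a log2 fold change of −2.65 (edgeR adjusted p = 0.0892). At an unadjusted edgeR p under 0.05, 3 genes were higher and 3 lower, against 11.5% and 12.5% of all tested genes. The median over these 19 genes was 0.01 and changed sign with 1 library left out (−0.15 to 0.17). The aldo-keto reductase genes AKR1C1 to AKR1C3, which are related in sequence, were named after their values were seen. Their log2 values were −0.43, −2.19 and −0.29, and none passed. AKR1C1 had 71 counts in control and 57 in knockdown, and AKR1C2 had 46 and 11. TRIM16 and OSGIN1, also named after their values were seen, had log2 values of 1.07 and 0.71. Of the 19 values in the list, 10 were positive and 9 negative.

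**Figure D4:**
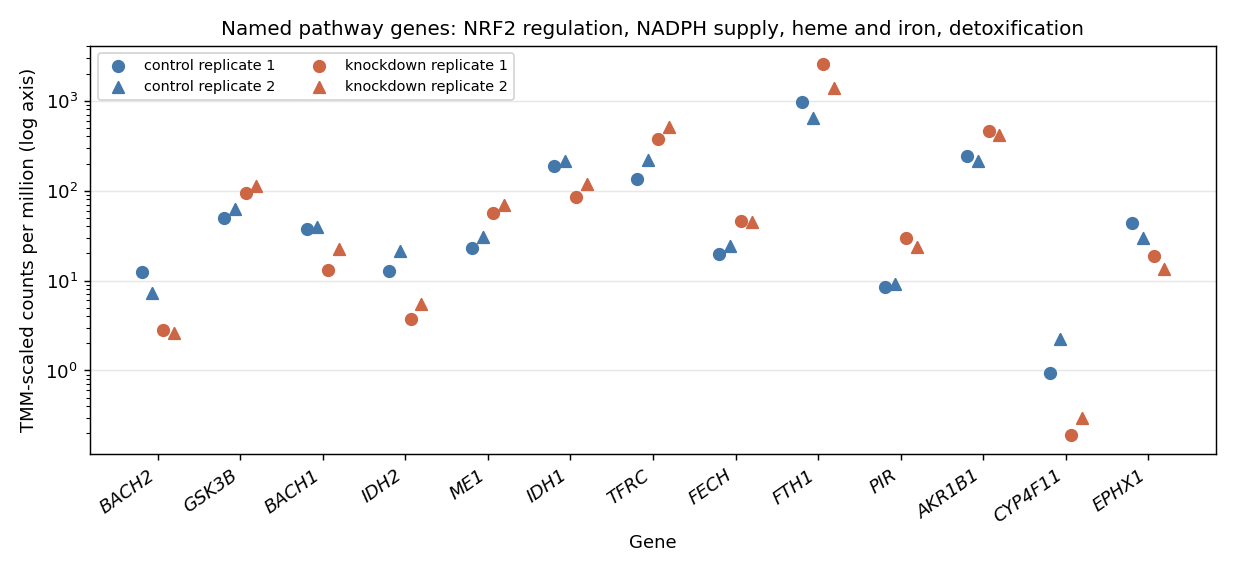
TMM-scaled CPM (log axis) of the named genes of NRF2 regulation, NADPH supply, heme and iron handling and detoxification in each library, marked as control (blue) or knockdown (orange), replicate 1 (circles) or 2 (triangles). In each of the 13 genes the 2 orange points lie on one side of the 2 blue points, above for GSK3B, ME1, TFRC, FECH, FTH1, PIR and AKR1B1 and below for the others. The genes were picked by the smallest p within each list, so most of this separation was set by the choice. Over all tested genes, both knockdown libraries lay above both control libraries in 27.5% and below in 26.8%.

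Beyond GCLC and GCLM, 26 genes that make or use glutathione were tested, and 0 passed with edgeR, while DESeq2 called 1 (GPX3) lower. At an unadjusted edgeR p under 0.05, 0 were higher and 3 lower, against 11.5% and 12.5% of all tested genes. The median was −0.10 (−0.17 to 0.08 with 1 library left out). GPX3, a secreted glutathione peroxidase, stood at 30.8 and 50.7 CPM in control and at 10.9 and 16.6 CPM in knockdown (log2 −1.57, SE 0.35, edgeR adjusted p = 0.0651). GPX4, which reduces lipid peroxides, stood at 386 and 251 CPM against 205 and 169 CPM (log2 −0.77, edgeR adjusted p = 0.154), and the exporter gene ABCC1 had a log2 fold change of −0.73 (edgeR adjusted p = 0.147). SLC7A11, the cystine transporter gene and a well known NRF2 target, stood at 99.6 and 297 CPM in control and at 109 and 240.7 CPM in knockdown. Its libraries followed the replicate number, not the group, and its log2 fold change was −0.18 (SE 0.55, edgeR adjusted p = 0.876). The downstream step genes GSS and GSR had log2 values of 0.01 and −0.26, and how these differ from GCLM was not tested. SLC7A11, GSS and GSR were named after their values were seen.

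In the thioredoxin and peroxiredoxin list, 0 of 19 genes passed with edgeR, and the median was 0.12 (−0.02 to 0.23 with 1 library left out). At an unadjusted edgeR p under 0.05, 2 were higher and 1 lower, against 11.5% and 12.5% of all tested genes. DESeq2 called 1 of them (PRDX4) higher. PRDX4, the peroxiredoxin of the endoplasmic reticulum, stood at 31.8 and 41.2 CPM in control and at 77.5 and 82.8 CPM in knockdown (log2 1.13, SE 0.24, edgeR adjusted p = 0.0594). TXNRD3, a relative of TXNRD1 best known from testis, had a log2 fold change of 0.78 (edgeR adjusted p = 0.160), and SESN1, a stress-induced sestrin, one of −0.91 (edgeR adjusted p = 0.123). PRDX1, a cytosolic NRF2 target, had one of 0.19 and the mitochondrial reductase gene TXNRD2 one of −0.26, both named after their values were seen. Of 5 superoxide and peroxide removing genes, 0 passed with edgeR or DESeq2 and 1 was higher at an unadjusted p under 0.05. All 5 values were positive, where 6557 of the 13022 genes tested were, and the median was 0.45 (0.19 to 0.56 with 1 library left out). SOD2, the mitochondrial superoxide dismutase, stood at 49.9 and 75.3 CPM in control and at 92.5 and 118 CPM in knockdown (log2 0.75, edgeR adjusted p = 0.170). CAT, which encodes catalase, and CCS, the copper chaperone of SOD1, had log2 values of 0.45 and 0.64 (edgeR adjusted p = 0.276 and 0.390).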

How the data were processed

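RNA-seq counts of 4 libraries were used. Libraries were made from total RNA with a TruSeq kit, per the labels' protocols. Per the file headers, the authors deposited raw counts, 1 value per symbol and library. Tools named in the submitters' processing notes, without roles, are STAR 2.5.2b, HTSeq 0.6.1, cutadapt and limma, with the builds hg19 and GRCh37. Annotation, filters and strand setting are not given there, so overlapping and antisense genes may not be kept apart. The other assays of the series were not analysed here.

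Counts were fitted over the whole table with edgeR 4.0.16 in R 4.3.3 (TMM, filterByExpr with a minimum count of 10 and a minimum total of 15, quasi-likelihood test without covariate, Benjamini-Hochberg adjustment over 13022 genes, threshold 0.05). The fit was tested on simulated counts. Alternatives were other scalings and filters, DESeq2 1.42.0, a replicate block and leaving out each library. RefSeq promoter windows of GRCh38.p14 served only for sequence. The members and lists were chosen with earlier results of these data known. Named genes were the members, TRMT13, in each list the called genes (at most 5) and 3 others with the smallest p, and 3 nearest profiles for each of 2 members. Genes outside this rule are marked in the text as named after their values were seen. Some list genes are counted but not reported by name here.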

Additional observations from a re-analysis of the deposited data

How the results depend on the processing

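The 3 other scalings and the filter at a mean of 5 CPM kept the number of changed genes within 1.5 times of 389. Without a filter it was 1949, with the DESeq2 Wald test 1129, and with 1 library left out 678 to 935. Among the members, 1 passed in the reported fit, 2 with upper-quartile scaling, 4 without a filter and 3 with DESeq2. Among the other pathway genes 1 passed, 22 without a filter, 14 with DESeq2 and 6 to 10 with 1 library left out. These counts stand beside more calls over all genes. The 1949 without a filter were among 18632 tested, against 389 of 13022 in the reported fit. The 1129 with DESeq2 were among the 13371 to which it gave an adjusted p. Whether the members or the other pathway genes exceeded these shares was not tested. The cause of the differences between settings was not tested either. The members' median of 0.62 was 0.47 without a filter and 0.46 with DESeq2, which both bring in SRXN1, and 0.43 to 0.88 with 1 library left out. The sign turned for NFE2L2 without knockdown replicate 1 and for TXN without knockdown replicate 2, with ranges of −0.17 to 0.092 for NFE2L2 and −0.034 to 0.84 for TXN when 1 library was left out. With 1 library left out, the lone library is assumed to vary like the others.

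The replicate numbers are shared by the groups, but the labels do not say that they mark a batch. Deviations of same-numbered libraries correlated at r = 0.64 across genes. With the replicate block 5227 of the 13022 genes tested passed. Among them were 6 of the 8 members tested (GCLC, GCLM, HMOX1, NQO1, TXN and TXNRD1) and 47 of the 112 other pathway genes tested. Calls were thus frequent over all genes in this setting, and the count of pathway genes was near that background.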
